A study of Mus musculus with 12 samples.

Results

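ND6 and the other mitochondrial-genome genes ND1, ND2, ND3, ND4L, ND4, ND5 and CYTB were followed in C2C12 cells, a mouse C3H myoblast line, with and without silencing of Bach1. Members were chosen by gene symbol alone, ignoring letter case and any mt- prefix, from the deposited table of all probes. This gave 8 probes, 1 for each gene, of 56605 probes with values. ND6 was singled out because its signal was lower with silencing at day 2, so that difference, and every value built on its day 2 siBach1 arrays, is given as a description with no test. The members were chosen with earlier results of these data known.

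RNA was measured on 12 one-colour Agilent arrays, 3 for each of 4 conditions. Cells were transfected with a control siRNA (siControl) or an siRNA against Bach1 (siBach1), and RNA was taken before induction of differentiation (day 0) or after it (day 2), differentiation being induced at confluence by replacing the growth serum with horse serum 24 hours after transfection. All cells were of this one immortal line, and a single siRNA against Bach1 was used according to the study's methods. Nothing states that replicates were separate cultures, so p-values measure only the spread between these samples, which may be technical, and 3 arrays per condition limit their precision.

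Mitochondria keep a small circular genome that encodes a few subunits of the respiratory chain, while all other subunits are made from nuclear genes and imported. Both of its strands are transcribed into long RNAs that are cut into separate messages, mostly at the transfer RNAs between them. ND1 to ND5, ND4L and ND6 encode membrane subunits of complex I, which takes electrons from NADH, and CYTB encodes the cytochrome b of complex III. ND6 stands apart because it is the one protein gene transcribed as part of the opposite long RNA from all the others. Skeletal muscle depends on this machinery, and muscle cells increase their mitochondrial content as they differentiate. In the reference gene order the mitochondrial genome holds 13 protein-coding genes among 37, and the members run ND1, ND2, then after 5 other protein genes ND3, ND4L, ND4, ND5, ND6 and CYTB, so that ND6 lies between ND5 and CYTB. ND4L and ND4 are neighbours carried on 1 shared message.

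Signals are log2 processed intensities minus the 75th percentile of the same array, so 0 is the level of that percentile, and a log2 difference of 1 is a doubling relative to it. Each of the 12 arrays measured the 8 members well above background, and none of their spots was saturated. Probes entered the test if at least 1 condition had them well above background on each of its 3 arrays, and 29664 probes, among them the 8 members, passed. A difference was called if limma's adjusted p (Benjamini-Hochberg over all tested probes) was under 0.05. Replicates 1 and 2 lay in different rows of slide 1 and replicate 3 on slide 2. Each condition kept its own column on the slides, so column and condition cannot be told apart. In whole-cell RNA, fewer cells expressing a gene and less of its RNA per cell cannot be told apart.

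The targeted gene carried its labels. Bach1 signals were 1.73, 1.55 and 1.78 in siControl and 0.18, -0.22 and -0.22 with silencing at day 0, then 2.56, 2.55 and 2.58 against 0.57, 0.56 and 0.65 at day 2. The difference was -1.77 at day 0 (SE 0.11, limma adjusted p = 1.2e-05) and -1.97 at day 2 (SE 0.11, adjusted p = 1.4e-05), with no overlap on either day. Of 8 myoblast and myocyte markers, 7 stood well above background on every one of the 12 arrays, and Myf5 on 8. Their summed intensity was 22646 to 43321 at day 0, 375543 to 444441 in siControl cells at day 2 and 285018 to 355629 in siBach1 cells at day 2. Among 4 macrophage markers, Ptprc, Csf1r and Cd68 were above background on all 12 arrays and Adgre1 on 0, with summed intensities of 1699 to 4270 over all arrays. Of 4 endothelial and 4 adipocyte markers, at most 1 of each was well above background on every array of a condition, with summed intensities of 34.2 to 74.5 and 39.5 to 173.2. The part of any of these cells in the results below was not tested.

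ND6 was lowest where Bach1 was silenced and differentiation had been induced. In siControl cells at day 0 the ND6 signals were 1.08, 1.76 and 1.87. In siBach1 cells at day 0 they were 1.29, 0.77 and 1.47, within or below the range of the controls. In siControl cells at day 2 they were 2.04, 1.71 and 2.08. With silencing at day 2 the arrays gave -0.22, 0.11 and -0.47. The 3 siBach1 arrays of day 2 were therefore the 3 lowest of the 12, and the other 9 arrays spanned 0.77 to 2.08.

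On the linear scale of the scanner, ND6 intensities were 1466, 1266 and 1456 in siControl cells at day 2 and 371, 457 and 294 in siBach1 cells. At day 0 they were 1128, 1705 and 1473 against 1070, 785 and 901. The day 2 signals with silencing were thus about the brightness of the 75th percentile of their arrays, still well above background. In order of mean level, ND6 stood at 1.94 ± 0.20 in siControl cells at day 2, 1.57 ± 0.43 in siControl cells at day 0, 1.17 ± 0.36 in siBach1 cells at day 0 and -0.19 ± 0.29 in siBach1 cells at day 2 (SD, n = 3 each). The first 3 of these overlapped with their neighbours, and the last overlapped with none.

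At day 2, ND6 was lower with silencing by a log2 difference of -2.13, a 4.38-fold difference, which is the value that chose it. Within slide 1 the difference was -1.92 and within slide 2, with 1 array per condition, it was -2.55. Pairing arrays by replicate number gave -2.25, -1.60 and -2.55. From day 0 to day 2, ND6 differed by 0.37 in siControl cells, with overlapping arrays, and by -1.37 in siBach1 cells, without overlap. The silencing effect thus differed between the days by -1.74, again as a description. At day 0, which the choice did not use, the difference was -0.39 (SE 0.25, 95% confidence interval -0.95 to 0.16, adjusted p = 0.32), the arrays overlapped, and 2 of 3 same-number differences were negative, at 0.21, -0.99 and -0.40. A loss at day 0 was therefore not shown, and the interval reaches to a difference of nearly 1 log2 unit.

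**Figure D1:**
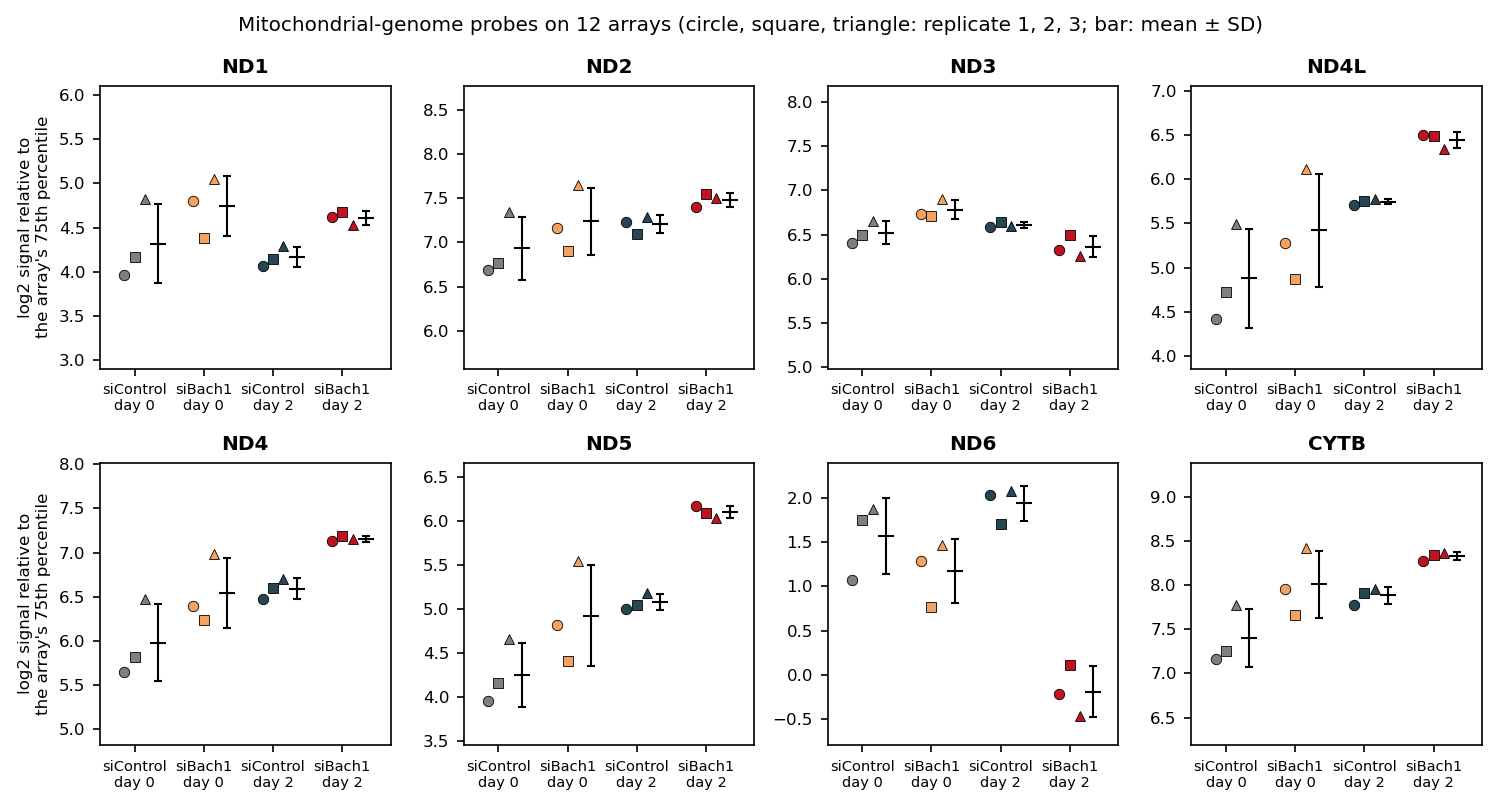
Log2 signal of each mitochondrial-genome probe relative to the array's 75th percentile (vertical axis, the same span of log2 units in every panel) in the 4 conditions (horizontal axis); circles, squares and triangles are replicates 1, 2 and 3, and bars are mean ± SD. ND6 lies between -0.47 and 0.11 on the siBach1 arrays of day 2 and between 0.77 and 2.08 on the others, while ND2, ND4L, ND4, ND5 and CYTB have their highest condition mean there.

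The other members did not share this pattern. At day 2, 6 of the other 7 members had every siBach1 array above every siControl array, and 1, ND3, had every siBach1 array below, against 15.7% of all tested probes without overlap upward and 17.1% downward (32.8% in either direction). The median difference of these 7 was 0.44, against -0.01 over all tested probes. Only ND5 passed the test, so 1 of 7 was called, against 12% of all tested probes. At day 0, none of the 8 members was called by limma, against 17.1% of all tested probes. Only ND3 had arrays without overlap at day 0, upward, against 21.9% of probes upward and 37.3% in either direction. The median of the 7 members was 0.54 at day 0, against 0.09 over all probes. With replicate number as a block, ND4, ND5 and CYTB were called higher at day 0, against 27.5% of all tested probes in either direction, and ND4 and ND5 at day 2, against 21.3%. Under spike-in scaling, arrays are scaled to 8 spike-in probes. The median of all tested probes itself then moved to -0.27 at day 0 and 0.33 at day 2. There ND2 and ND3 turned to -0.062 and -0.10 at day 0, and ND3 to 0.10 at day 2. On that scale ND1, ND4L, ND4, ND5 and CYTB were called higher at day 2, against 6.97% of all tested probes in either direction. Leaving out the siControl day 0 array of replicate 3 called ND1, ND4 and CYTB at day 0, against 13.8% of all tested probes. Without the siBach1 day 0 array of replicate 2, ND5 and CYTB were called, against 13.3%. These 7 probes shared each array's RNA and are not replicates of one another.

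ND5 encodes one of the large proton-pumping subunits of complex I and lies next to ND6 on the genome. Its signals at day 2 were 5.00, 5.05 and 5.18 in siControl cells and 6.17, 6.09 and 6.03 in siBach1 cells, so the groups lay well apart. The difference was 1.02, or 2.03-fold (SE 0.26, adjusted p = 0.029). At day 0 the signals were 3.95, 4.16 and 4.65 against 4.82, 4.41 and 5.54. These overlapped, and the difference of 0.67 (SE 0.26) had an adjusted p of 0.10, or 0.048 with the replicate block, and ranged over 0.36 to 0.93 with 1 array left out. The effects on ND5 differed between days by 0.35 (SE 0.36, adjusted p = 0.65). The call at day 2 was lost without the filter on dim probes (adjusted p = 0.094) and in each of 6 fits that left out 1 day 2 array of either siRNA (differences of 0.98 to 1.07), and the adjusted p over all alternatives ranged from 0.00010 to 0.094.

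ND4 is another proton-pumping subunit, and ND4L a small one read from the same message. ND4 at day 2 stood at 6.47, 6.60 and 6.70 in siControl and 7.13, 7.19 and 7.15 in siBach1 cells, a difference of 0.56 (SE 0.23, adjusted p = 0.14, or 0.045 with the replicate block). At day 0 it stood at 5.65, 5.82 and 6.47 against 6.39, 6.24 and 6.99, again a difference of 0.56 (SE 0.23, adjusted p = 0.12, or 0.039 with the block). Leaving out 1 array gave ND4 differences of 0.33 to 0.80 at day 0 and 0.50 to 0.62 at day 2. For ND4 over all alternatives the adjusted p ranged from 0.021 to 0.59 at day 0 and from 0.0012 to 0.33 at day 2. ND4L at day 2 stood at 5.71, 5.76 and 5.77 against 6.50, 6.48 and 6.34, a difference of 0.69 (SE 0.31, adjusted p = 0.19). At day 0 ND4L stood at 4.41, 4.73 and 5.49 against 5.28, 4.87 and 6.12, a difference of 0.54 (SE 0.31, adjusted p = 0.27), which ranged over 0.20 to 0.85 with 1 array left out. Of the members, ND4L had the widest spread between arrays of a day 0 condition, with an SD of 0.56 in siControl and 0.64 in siBach1 cells.

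ND1 and ND2 are membrane subunits of complex I at the other end of the row of genes. ND1 stood at 4.06, 4.15 and 4.29 in siControl and 4.63, 4.67 and 4.52 in siBach1 cells at day 2, a difference of 0.44 (95% confidence interval -0.04 to 0.93, adjusted p = 0.23). ND2 stood at 7.24, 7.10 and 7.29 against 7.40, 7.54 and 7.50, a difference of 0.27 (95% confidence interval -0.18 to 0.72, adjusted p = 0.44). At day 0 both overlapped between siRNAs, with differences of 0.42 for ND1 and 0.30 for ND2 (adjusted p = 0.22 and 0.35), which ranged over 0.25 to 0.68 and 0.10 to 0.51 with 1 array left out. Neither was called in either comparison, although the arrays did not overlap at day 2.

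CYTB, the only member outside complex I, lies next to ND6 on its other side. At day 0 its signals were 7.16, 7.25 and 7.77 in siControl and 7.95, 7.66 and 8.41 in siBach1 cells, a difference of 0.61 (SE 0.19, adjusted p = 0.056, or 0.017 with the replicate block), which ranged over 0.41 to 0.80 with 1 array left out. At day 2 they were 7.78, 7.91 and 7.96 against 8.28, 8.34 and 8.36, which did not overlap, and the difference was 0.44 (SE 0.19, adjusted p = 0.17, or 0.064 with the block). For CYTB the adjusted p over all alternatives ranged from 0.011 to 0.46 at day 0 and from 0.0017 to 0.40 at day 2. ND5 and CYTB, the neighbours of ND6 on either side, were thus both brighter on every siBach1 array of day 2, where ND6 was dimmer on every one.

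ND3, a small complex I subunit, was the only member other than ND6 with lower signals on the siBach1 arrays of day 2. Its signals there were 6.33, 6.49 and 6.26, against 6.58, 6.64 and 6.60 in siControl cells. At day 0 the order was the other way round, at 6.73, 6.71 and 6.90 with silencing against 6.40, 6.50 and 6.66 without. The differences were 0.26 at day 0 (SE 0.10, adjusted p = 0.091) and -0.25 at day 2 (SE 0.10, adjusted p = 0.13), neither called. The difference between these effects was -0.51 (SE 0.14, adjusted p = 0.061, or 0.037 with the replicate block), with 0.027 to 0.56 over all alternatives. None of the 7 members other than ND6 was called for this difference between days, against 4.59% of all tested probes. ND3 moved far less than ND6, with a day 2 fold of 1.19 against 4.38, the value for which ND6 was chosen.

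**Figure D2:**
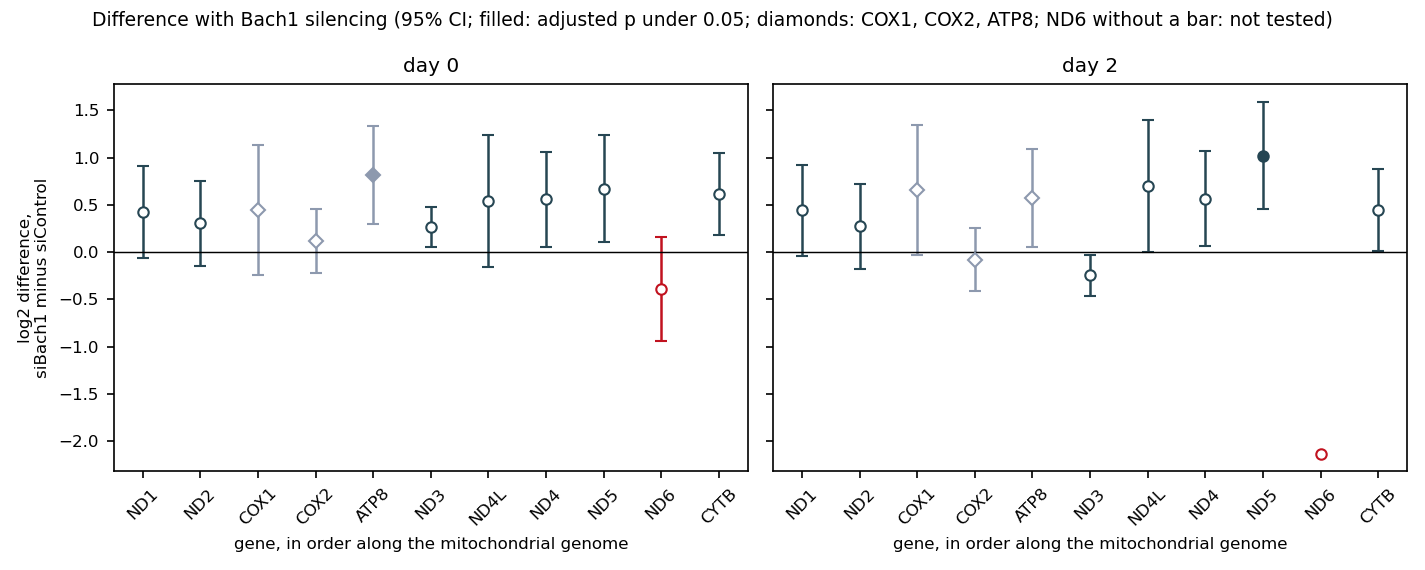
Log2 difference between siBach1 and siControl cells (vertical axis) at day 0 and day 2 for mitochondrial-genome probes in gene order (horizontal axis), with 95% confidence intervals; filled symbols have an adjusted p under 0.05 and diamonds are genes outside the chosen set. At day 2 ND6 lies at -2.13, shown without an interval because it was chosen for this value, between ND5 at 1.02 and CYTB at 0.44.

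The array carried probes with the symbols of 3 more protein genes of the same genome. COX1 and COX2, subunits of cytochrome oxidase, and ATP8, a subunit of ATP synthase, are read from the same long RNA as all members but ND6. ATP8 was called higher with silencing at day 0, by 0.81 (SE 0.23, adjusted p = 0.038), and stood 0.57 higher at day 2 (adjusted p = 0.15). COX1 differed by 0.44 and 0.66 (adjusted p = 0.37 and 0.20), and COX2 by 0.12 and -0.08 (adjusted p = 0.66 and 0.79). None of the 3 came near the -2.13 of ND6, for which ND6 was chosen, and the only negative value among them was that of COX2 at day 2.

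ND4L, ND4 and ND5 were called higher at day 2 than at day 0 in both siRNA conditions, so that 3 of 7 were called in siControl cells, all upward, against 53.4% of all tested probes in either direction and 24.6% upward. In siBach1 cells 3 were called higher and 1 lower, against 56.1% of all tested probes in either direction, 23.8% upward and 32.3% downward. ND5 differed by 0.82 in siControl cells (SE 0.26, adjusted p = 0.019) and 1.17 in siBach1 cells (SE 0.26, adjusted p = 0.0026). ND4L differed by 0.87 (SE 0.31, adjusted p = 0.038) and 1.02 (SE 0.31, adjusted p = 0.018), and ND4 by 0.61 (SE 0.23, adjusted p = 0.041) and 0.62 (SE 0.23, adjusted p = 0.037). Leaving out 1 of the 12 arrays at a time lost the siControl call in 9 fits for ND4, in 7 for ND4L and in 3 for ND5, with ND5 at 0.67, 0.77 and 0.77 without replicate 1 or 2 of day 0 or replicate 3 of day 2. In siBach1 cells the call was lost in 6 fits for ND4 and in 2 for ND4L, at 0.95 and 0.74 without replicate 1 or 2 of siBach1 day 0.

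ND3 was called lower at day 2 in siBach1 cells, by -0.42 (SE 0.10, adjusted p = 0.0034), and differed by 0.09 in siControl cells (adjusted p = 0.47). The ND3 call was lost with quantile normalization, at -0.031, and with spike-in scaling, at -0.45 (adjusted p = 0.11), with 0.00086 to 0.77 over all alternatives. ND1, at -0.15 and -0.14, and ND2, at 0.27 and 0.24, were not called in either condition. CYTB differed by 0.49 in siControl cells (adjusted p = 0.056, or 0.018 with the replicate block, with 0.0044 to 0.24 over all alternatives) and by 0.32 in siBach1 cells (adjusted p = 0.20). The median difference of the 7 members was 0.49 in siControl and 0.32 in siBach1 cells, against 0.00 and -0.07 over all tested probes. With a 2-fold minimum added to the call, 0 of 7 members were called in siControl cells, against 20% of all tested probes, and ND4L and ND5 in siBach1 cells, against 20.5%. Under the same rule 0 of 8 were called for silencing at day 0 (against 2.79%), ND5 alone of 7 at day 2 (against 2.17%), and 0 of 7 for the difference between days (against 1.44%).

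The slide bore on these day changes. Within slide 1, ND4L differed between days by 1.17 in siControl and 1.42 in siBach1 cells, and within slide 2 by 0.28 and 0.22. ND5 differed by 0.97 and 1.51 on slide 1 and by 0.53 and 0.49 on slide 2, and ND4 by 0.80 and 0.85 against 0.23 and 0.17. ND2 differed by 0.44 in both conditions on slide 1 and by -0.052 and -0.15 on slide 2. CYTB differed by 0.64 and 0.50 on slide 1 and by 0.19 and -0.050 on slide 2. ND1 differed by 0.041 and 0.057 on slide 1 and by -0.54 and -0.52 on slide 2, and ND3 in siControl cells by 0.16 and -0.057. Signs therefore turned between slides for ND1, for ND2, for CYTB in siBach1 cells and for ND3 in siControl cells. The slide 2 arrays of day 0 were the highest of their condition for each of the 8 members. At day 2 the slide 2 array was the highest for 7 members, all but ND3, in siControl cells and for CYTB alone in siBach1 cells. Using slide 1 alone, an alternative chosen after seeing the data, 5 members were called higher in siControl cells, against 58.5% of all tested probes called in either direction, and 5 higher and 1 lower in siBach1 cells, against 60.0%. Under spike-in scaling, the median of all tested probes itself moved to -0.74 in siControl cells. On that scale 0 of 7 members were called higher and ND1, ND2 and ND3 were called lower in siControl cells, against 61.2% of all tested probes in either direction. In siBach1 cells, where that median was -0.09, ND4L, ND4 and ND5 were called higher under spike-in scaling too, against 35.5% of all tested probes in either direction.

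**Figure D3:**
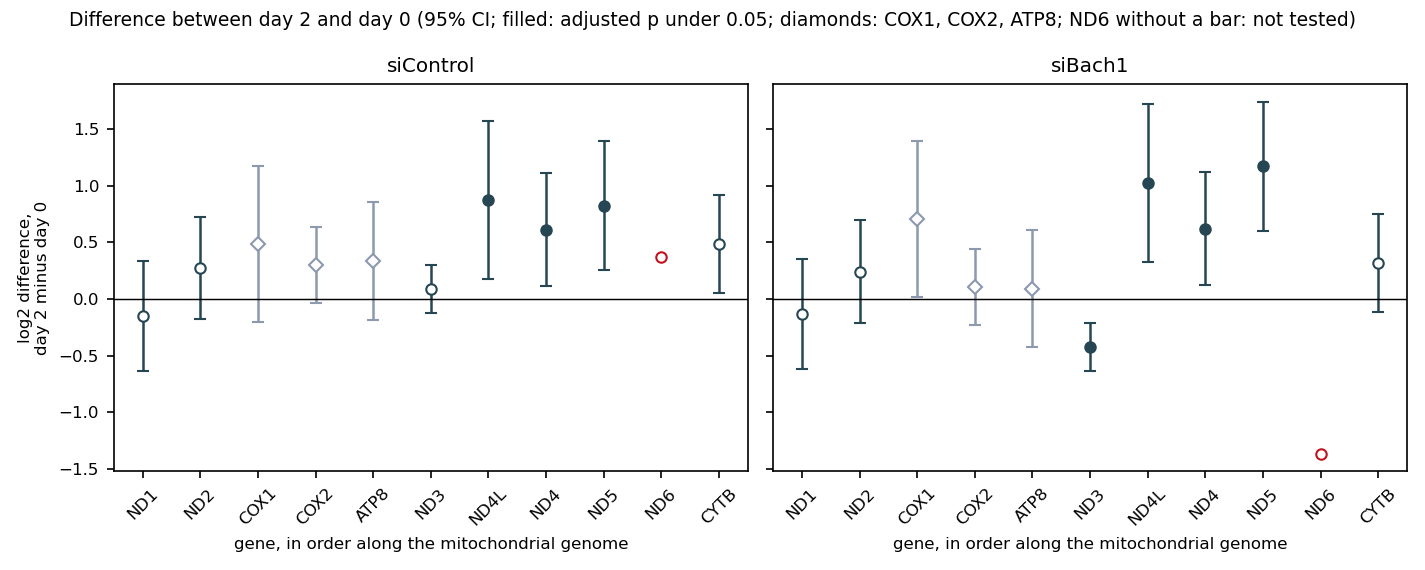
Log2 difference between day 2 and day 0 (vertical axis) in siControl and siBach1 cells for mitochondrial-genome probes in gene order (horizontal axis), with 95% confidence intervals; filled symbols have an adjusted p under 0.05 and diamonds are genes outside the chosen set. ND4L, ND4 and ND5 lie between 0.61 and 1.17 in both panels, and ND6, shown without an interval, lies at 0.37 in siControl and -1.37 in siBach1 cells.

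Across arrays the members varied together within a condition, ND6 included. After each condition's mean was removed, Pearson's r over the 12 arrays was 0.75 to 0.98 for the 21 pairs of the other members (median 0.94) and 0.65 to 0.78 for the 7 pairs with ND6 (median 0.73). With the condition means left in, the pairs with ND6 ranged from -0.61 with ND5 to 0.62 with ND3, with a median of -0.46, while ND4L, ND4 and ND5 kept 0.97 to 0.98 among themselves. These values are descriptions with no test, since all points share the same RNA, array and scaling. The siBach1 arrays of day 2 that hold the lowest ND6 signals enter the values with condition means.

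**Figure D4:**
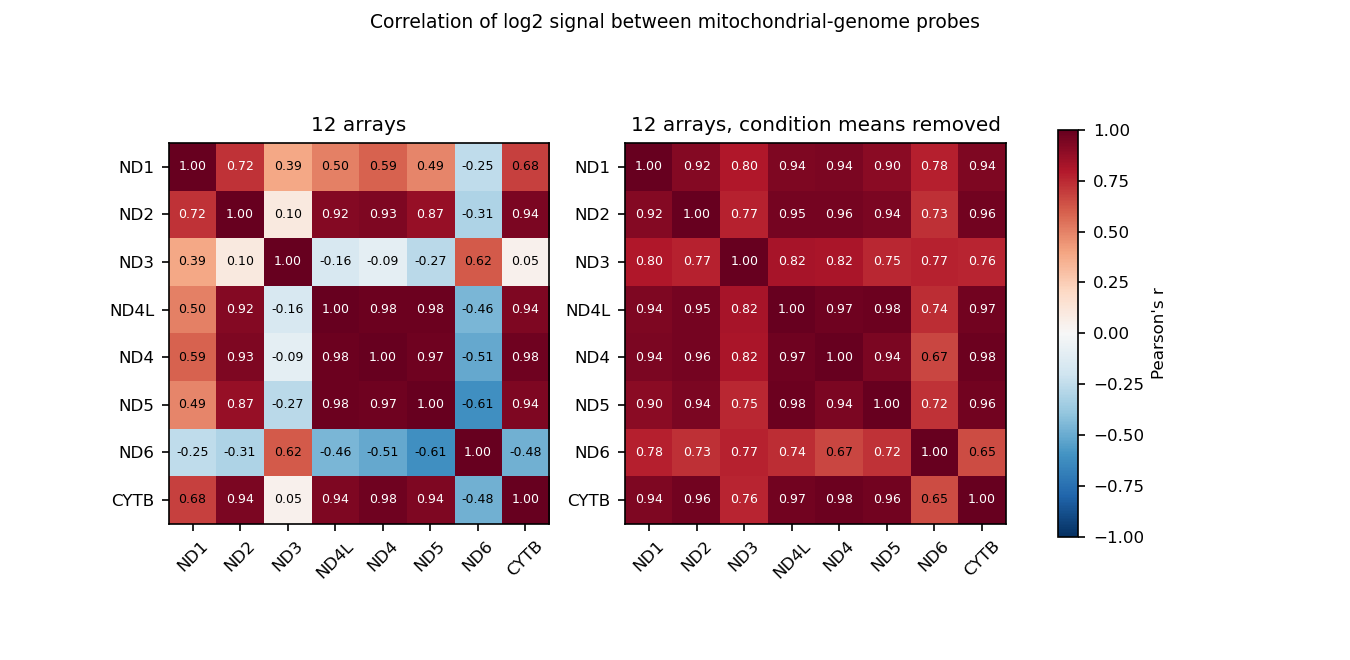
Pearson's r between the log2 signals of pairs of mitochondrial-genome probes (both axes list the 8 genes) over 12 arrays, with condition means left in (left) or removed (right). ND6 has negative r with every member but ND3 on the left, down to -0.61, and r of 0.65 to 0.78 with every member on the right.

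Genes other than the members were ranked by how like their course over the 12 arrays was to that of ND6. The members themselves were left out of this ranking. The siBach1 arrays of day 2, for which ND6 was chosen, entered it, so it is a description with no test. Among 15628 genes compared by Pearson's r, the 5 highest were Npepps (0.97), Cdh18 (0.93), Nfic (0.92), Cdv3 (0.92) and Zfp148 (0.92). Npepps encodes a cytosolic aminopeptidase, Cdh18 a cadherin and Nfic a transcription factor of the nuclear factor I family. Their day 2 differences with silencing were smaller than that of ND6, at -0.43, -1.04, -0.40, -0.75 and -0.27. The set was not stable, since 2 of the 5 remained by Spearman's correlation and 1 after quantile normalization.

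Nuclear genes that make, process or work with these transcripts were read from 5 lists, with 1 probe per gene. In the list of mitochondrial gene expression, 6 of 37 genes were called higher and 2 lower with silencing at day 0, and 0 and 2 at day 2, against 8.8% higher and 8.32% lower over all probes at day 0 and 5.75% and 6.26% at day 2. Ptcd2, a protein of mitochondrial RNA processing known for its part in the CYTB message, was called lower on both days, by -1.24 at day 0 (SE 0.12, adjusted p = 9e-05) and -0.63 at day 2 (SE 0.12, adjusted p = 0.0076). Polg2, the accessory subunit of the mitochondrial DNA polymerase, was lower at day 0 by -0.61 (adjusted p = 0.0027). Mterf2, of the mitochondrial transcription termination factor family, was higher by 0.51 (adjusted p = 0.0024), and Tbrg4, which acts on the stability of mitochondrial RNAs, by 0.45 (adjusted p = 0.021). At day 2, Nsun4, a methyltransferase of the mitochondrial ribosome, was lower by -0.47 (adjusted p = 0.020). The 5 lists held 37, 36, 14, 14 and 7 tested genes. Of all these together, 26 were called at day 0 and 11 at day 2, against 17.1% and 12% of all tested probes. Leaving out 1 array gave 9 to 24 and 4 to 14, against 10.9 to 17.8% and 6.11 to 13.4% of all tested probes. The 9 came without replicate 1 or 2 of siControl day 0 or replicate 3 of siBach1 day 0. In the list of mitochondrial gene expression, leaving out 1 array gave 1 to 6 higher calls at day 0, with 1 without replicate 1 or 2 of siControl day 0, and 1 to 2 lower calls at day 2. The Tbrg4 call was lost in 4 of these 12 fits and the Nsun4 call in 3. Under spike-in scaling 0 were called higher and 2 lower at day 0, with a median of -0.26, and 1 higher and 0 lower at day 2, with a median of 0.37. With the replicate block the counts in this list were 10 higher and 4 lower at day 0 and 3 and 3 at day 2. The block called 27.5% of all tested probes at day 0 and 21.3% at day 2, in either direction.

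Among nuclear subunits of complex I, the called genes were higher with silencing at day 0 and lower at day 2, on the scale of the 75th percentile but not under spike-in scaling. At day 0, 9 of 36 were called higher and 0 lower, against 8.8% and 8.32% of all tested probes. The median difference was 0.23, against 0.09 over all probes. Ndufb4 differed by 0.39 (SE 0.08, adjusted p = 0.0078) and Ndufa6 by 0.34 (SE 0.10, adjusted p = 0.040). At day 2, 0 of 36 were called higher and 4 lower, against 5.75% and 6.26% of all tested probes, with a median of -0.15 against -0.01. Ndufs6 differed by -0.38 (SE 0.10, adjusted p = 0.038) and Ndufa1 by -0.33 (SE 0.09, adjusted p = 0.047). The effect itself differed between days for 6 of 36, all downward, against 2.2% of all probes. Under spike-in scaling none of these calls was made, and the medians became -0.14 at day 0 and 0.20 at day 2, while the median of all tested probes became -0.27 and 0.33. After quantile normalization 1 was called higher on each day, none was called lower or between days, and the medians were 0.11 and -0.01. Of all tested probes, 16.1% were then called at day 0, 12.5% at day 2 and 3.84% between days. With the replicate block 18 were higher at day 0, 8 lower at day 2 and 19 differed between days, and on slide 1 alone the counts were 3, 3 and 0. Leaving out 1 array gave 1 to 8 higher at day 0, with 1 without replicate 3 of siBach1 day 0, and 0 to 5 lower at day 2, with 0 without replicate 1 of siControl or siBach1 day 2. Such fits called 10.9 to 17.8% of all tested probes at day 0 and 6.11 to 13.4% at day 2, in either direction. The Ndufa6 and Ndufs6 calls were each lost in 8 of these 12 fits, and the Ndufa1 call in 11. For the difference between days the same fits gave 0 to 5, with 0 in 6 of them, which left out any siControl day 0 array, replicate 1 or 2 of siControl day 2 or replicate 1 of siBach1 day 2. Without the filter on dim probes the counts were 0, 0 and 0, against 4.38%, 2.31% and 0.0866% of all probes. With only the arrays compared 1 was higher at day 0 and 0 lower at day 2, against 12.5% and 6.99% in either direction.

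Among 14 tested genes of complex III, of 15 listed, 4 were called higher and 1 lower at day 0, against 8.8% and 8.32% of all tested probes. Uqcrh and Uqcr11, subunits of the complex, differed by 0.46 (adjusted p = 0.0033) and 0.36 (adjusted p = 0.029), and Uqcc1, an assembly factor, by -0.43 (adjusted p = 0.013). At day 2 the 1 called gene, the assembly factor Uqcc2, differed by -0.57 (SE 0.08, adjusted p = 0.0023), against 6.26% of all tested probes called lower. The list's median was 0.20 at day 0 and -0.14 at day 2, and under spike-in scaling these became -0.16 and 0.20, with 1 gene called lower at day 0 and 0 called at day 2. The day 2 median became 0.018 with quantile normalization. The 4 higher calls of day 0 became 1 with quantile normalization, without the filter, with only the arrays compared, and without replicate 1 or 2 of siControl day 0 or replicate 3 of siBach1 day 0. With the replicate block 5 were higher and 1 lower at day 0 and 4 lower at day 2, against 27.5% and 21.3% of all tested probes in either direction.

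Of 14 complex I assembly factors, Tmem126b was called higher on both days, by 0.35 at day 0 (adjusted p = 0.022) and 0.34 at day 2 (adjusted p = 0.033). Ndufaf1 was lower at day 0, by -0.50 (adjusted p = 0.0092), and Foxred1 higher at day 2, by 0.29 (adjusted p = 0.031). At day 0 this made 1 of 14 called higher and 1 lower, against 8.8% and 8.32% of all tested probes. At day 2 it made 2 called higher and 0 lower, against 5.75% and 6.26%. Leaving out 1 array lost the Tmem126b call in 3 of 12 fits at day 0 and 7 at day 2, and the Foxred1 call in 5. Both day 2 calls were also lost with median scaling, with spike-in scaling, without the filter and with only the arrays compared. The Tmem126b call of day 0 was lost with spike-in scaling, without the filter and with only the arrays compared. Of 7 regulators of mitochondrial biogenesis, Ppargc1a, the coactivator PGC-1α, was higher at day 2 by 1.13, or 2.19-fold (SE 0.17, adjusted p = 0.0033), and Nrf1, a transcription factor for nuclear genes of the respiratory chain, lower by -0.27 (adjusted p = 0.044). At day 0, Ppargc1b was higher by 0.46 (adjusted p = 0.0040) and Gabpb1 lower by -0.30 (adjusted p = 0.032). Of the 7 regulators, 1 was thus called higher and 1 lower on each day, against the same shares of all tested probes. The Nrf1 call was lost in 11 of the 12 fits that left out 1 array, all but that without replicate 3 of siBach1 day 0, and the Gabpb1 call in the 6 that left out a day 0 array. Spike-in scaling lost the calls of Nrf1, Gabpb1 and Ppargc1b, and fits without the filter or with only the arrays compared lost those of Nrf1 and Gabpb1. Under spike-in scaling the day 0 medians of both lists were below 0, at -0.26 and -0.30. With the replicate block, 3 assembly factors were higher and 2 lower at day 0 and 2 higher and 1 lower at day 2, and 2 regulators were lower at day 2. Of all tested probes, the block called 27.5% at day 0 and 21.3% at day 2, in either direction. None of the nuclear genes in the 5 lists was lower at day 2 by as much as ND6, a description only, since ND6 was chosen for that difference.

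**Figure D5:**
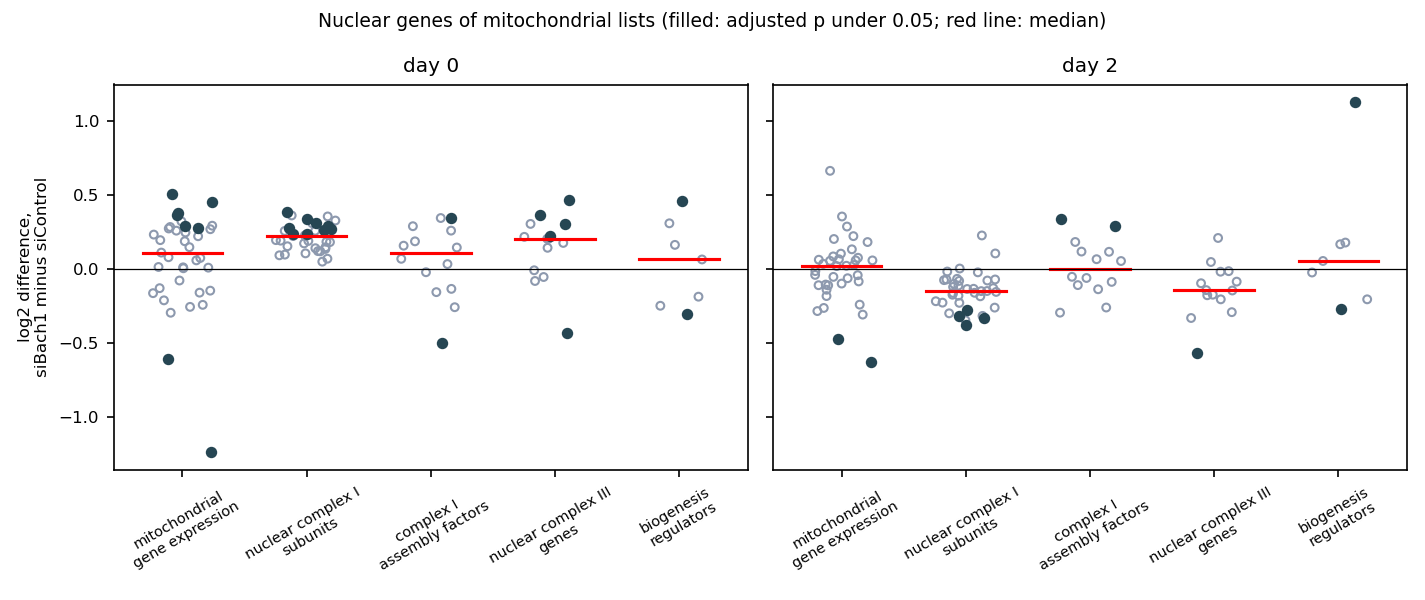
Log2 difference between siBach1 and siControl cells (vertical axis) at day 0 and day 2 for nuclear genes of 5 mitochondrial lists (horizontal axis, 1 point per gene); filled points have an adjusted p under 0.05 and red lines are list medians. The median of the complex I subunits lies at 0.23 at day 0 and -0.15 at day 2, and the highest point at day 2 is Ppargc1a at 1.13.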

How the data were processed

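Labelled RNA of C2C12 cells was hybridized to 12 one-colour Agilent arrays of 62976 spots. Per the file headers the spots were read with Feature Extraction 10.7.3.1, while the submitters' processing notes name Agilent Feature Extraction 9.1. The deposited processed signal is a background-subtracted intensity on a linear scale. The authors also deposited log2 values per probe, which equalled the log2 intensity minus the array's 75th percentile and the probe's median to within 0.01 for 100% of values. The labels describe labelling of total RNA with a reactive dye and the methods describe labelled cRNA, and which was used was not settled. The strand and sequence of the probes were not analysed here, so RNA from the opposite strand or from nuclear copies of mitochondrial DNA cannot be told apart from the named transcripts.

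Here log2 intensities, less each array's 75th percentile, were taken after removing control spots and 76 to 110 outlier spots per array, and repeated spots were averaged. No spot was saturated, 47.6 to 58.9% of probes were well above background, and the 75th percentile lay at 325.5 to 534.4. All 4 conditions entered 1 limma fit (limma 3.58.1, R 4.3.3) with no block, and p-values were adjusted by Benjamini-Hochberg over 29664 probes. Replicate numbers were checked as pairs. Deviations from the condition means correlated at 0.142 to 0.595 in all 18 pairs of same-numbered arrays, and at -0.44 to 0.26 in the 36 other pairs, so blocked values are given where they change a call. For a list gene, the tested probe with the highest mean was used.

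Named were the members, Bach1, and for each list and silencing comparison the 2 called genes that rose most and the 2 that fell most. The 5 genes most correlated with ND6, with the members left out, were named too. COX1, COX2 and ATP8 come from a list of the genome's other genes. The members and lists were chosen with earlier results of these data known. Tested on simulated data for silencing at day 2, with 200 of 29664 probes changed by a log2 value of 1, the fit recovered 61.5% with 8 false calls. Alternatives were other scalings, background correction, filters, blocks, tests and left-out arrays. Ranges of p over all alternatives take in the t-test of the methods without adjustment, where it was run. No column of the authors' own comparisons was used. Gene order came from RefSeq names in the GRCm38.p6 table, while the array's design names mm9, so no coordinates are given.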

Additional observations from a re-analysis of the deposited data

Results flagged for a closer look

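ND3 was higher with silencing on every array at day 0 and lower on every array at day 2, an opposite course in the 2 groups of arrays. The effect at day 2 minus that at day 0 was -0.51 on the log2 scale (SE 0.14, limma adjusted p = 0.061, with 0.027 to 0.56 over all alternatives). In the fit with no block, neither this difference nor the effect on either day was called. Same-number differences were 0.33, 0.21 and 0.25 at day 0 and -0.25, -0.15 and -0.34 at day 2. With the replicate block the adjusted p was 0.037, within slide 1 the value was -0.47 and within slide 2 it was -0.59. Under spike-in scaling the value was 0.20, while the median of all tested probes became 0.64.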

How the results depend on the processing

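The ND6 difference at day 2, which chose the gene and so is no test of stability, was -1.78 under spike-in scaling, -2.55 within slide 2 and -2.28 to -1.99 with 1 array left out. Percentages in brackets below are of all tested probes called in either direction. Members called at day 0 (0, 17.1%) became 1 with normexp background (17.5%) and 1 with probes above background on all 12 arrays (20.7%). They became 3 with the replicate block (27.5%), 3 with the slide block (28%) and 2 with robust limma-trend (18.8%). Slide 1 only gave 2 (13.96%), and 1 array left out gave 0 to 3 (10.9 to 17.8%). Members other than ND6 called at day 2 (1, 12%) became 3 with quantile normalization (12.5%), 5 with spike-in scaling (6.97%) and 0 without the filter (2.31%). They became 2 with the replicate block (21.3%), 3 with the slide block (21.8%) and 4 with only the arrays compared (6.99%). The methods' t-test gave 4 after Benjamini-Hochberg (3.7%) and 7 unadjusted (24.2%). Slide 1 only gave 3 (8.49%), and 1 array left out gave 0 to 1 (6.11 to 13.4%). Called day changes in siControl cells (3, 53.4%) became 0 without the filter (24.4%) and 1 by the methods' t-test with (46.6%) or without (54.6%) adjustment. They became 5 on slide 1 only (58.5%), 0 with a 2-fold minimum (20%) and 0 to 4 with 1 array left out (47.9 to 55.6%). In siBach1 cells (4, 56.1%) they became 1 by the methods' t-test after adjustment (47.6%) and 2 unadjusted (54.9%). A 2-fold minimum gave 2 (20.5%) and 1 array left out 2 to 5 (50.3 to 56.4%). Calls for the difference between days (0, 4.59%) became 1 with normexp (5.44%), spike-in scaling (7.36%) or the all-array filter (6.52%). They were also 1 with the replicate block (13.0%), the slide block (13.7%) or robust limma-trend (7.22%), and 0 with any array left out (1.61 to 3.81%). List genes called at day 0 (26, 17.1%) became 12 with quantile normalization (16.1%), 17 with median scaling (15.97%) and 4 with spike-in scaling (7.15%). They became 5 without the filter (4.38%), 45 with the replicate block (27.5%) and 48 with the slide block (28%). Only the arrays compared gave 9 (12.5%), and the methods' t-test 16 with adjustment (10.5%) and 44 without (28.2%). Slide 1 only gave 15 (13.96%), a 2-fold minimum 1 (2.79%) and 1 array left out 9 to 24 (10.9 to 17.8%). List genes called at day 2 (11, 12%) became 2 with spike-in scaling (6.97%), 3 without the filter (2.31%) and 24 with the replicate block (21.3%). They became 29 with the slide block (21.8%), 3 with only the arrays compared (6.99%) and 20 with robust limma-trend (13.5%). The methods' t-test gave 7 with adjustment (3.7%) and 39 without (24.2%), and a 2-fold minimum 1 (2.17%). The mean of a gene's probes gave 19, and 1 array left out 4 to 14 (6.11 to 13.4%). Of the 5 genes most like ND6, 2 remained by Spearman correlation and 1 with quantile normalization. The cause of these changes was not tested.

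Signs turned as follows, besides the day changes within slide 2 given above. Under spike-in scaling ND2 and ND3 became -0.062 and -0.10 at day 0 and ND3 became 0.10 at day 2, the day change in siControl cells became -0.46 for ND2, -0.65 for ND3, -0.13 for ND4 and -0.25 for CYTB, and the difference between days became 0.68 for ND2, 0.20 for ND3 and 0.54 for CYTB. The difference between days became 0.29 for ND2 and 0.13 for CYTB with quantile normalization, 0.073 for ND2 with normexp and 0.00047 for ND2 on slide 1 only. Within slide 2, with 1 array per condition, it became -0.039 for ND5, -0.058 for ND4L and -0.065 for ND4. The ND1 day change became 0.041 in siControl and 0.057 in siBach1 cells on slide 1 only and 0.16 in siBach1 cells with quantile normalization. With 1 array left out, the ND1 day change ranged over -0.33 to 0.10 in siControl and -0.32 to 0.015 in siBach1 cells, and the difference between days over -0.24 to 0.19 for ND1, -0.24 to 0.17 for ND2, -0.16 to 0.50 for ND4L, -0.24 to 0.23 for ND4 and -0.36 to 0.031 for CYTB.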
